A study of Homo sapiens with 8 samples.

Results

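NT2/D1 regions in which OCT4 shared a peak with SOX2 or with NANOG, but not with both, and which held no peak of any factor in H9, are described here. Peaks of the 6 factor lists (SOX2, OCT4 and NANOG in each line) that overlapped by at least 1 bp were merged, which gave 148059 regions. Of these, 2087 held a peak of the NT2/D1 OCT4 list, a peak of exactly 1 of the NT2/D1 SOX2 and NANOG lists, and no H9 peak. There were 1032 OCT4 and SOX2 pairs and 1055 OCT4 and NANOG pairs. The regions were chosen by peak presence alone, so their counts, tags, folds, scores, summit distances and gaps to H9 peaks describe the choice and are not tested. H9 cells are human embryonic stem cells. NT2/D1 cells are embryonal carcinoma cells, a clonal line from a testicular germ cell tumour. The labels give neither line a treatment or an added allele.

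Each factor was immunoprecipitated once in each line and sequenced on a SOLiD system, beside an IgG library, so no difference below has a replicate check. The peak lists hold no expression values, so the identity of the lines was not checked. The NT2/D1 libraries held 10218752 unique tags for OCT4, 19669139 for NANOG and 23160564 for SOX2, against 54046559 to 77649240 in H9. SOX2 and NANOG of NT2/D1 were compared with the same IgG library of 2937004 unique tags and carry the same run number in their headers, while OCT4 has another run number and an IgG library of 6479071 unique tags. OCT4 peaks were also called with a model fold of 5, against 3 for the other lists. The NT2/D1 samples titled OCT4 and NANOG carry each other's name in the source field, and the titles are followed here. Were the source field right, the OCT4 and NANOG pairs would still hold the same factors, but the regions given as OCT4 and SOX2 pairs would be NANOG and SOX2 pairs.

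OCT4 (POU5F1), a POU-domain protein that recognises an octamer sequence, and SOX2, a protein with an HMG box that bends DNA, can bind side by side on a composite site. NANOG is a homeodomain protein of the same pluripotency network. In embryonic stem cells the 3 factors occupy many common enhancers, their own among them, and embryonal carcinoma cells, the malignant counterpart of early embryonic cells, also express them.

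Promoters were the only member regions for which sequence was at hand, because the peak coordinates are hg19 and the sequences came from RefSeq promoters on GRCh38.p14. Of the genes whose transcription start site (TSS) lay inside the OCT4 peak of a pair, 44 of 48 with OCT4 and SOX2 pairs and 61 of 76 with OCT4 and NANOG pairs were matched. Each promoter of 300 bases, reaching 50 bases past the start, was searched on both strands for an octamer core (ATGCAAA), a SOX core (CATTGTT) and a NANOG core (TAATGG), and for the octamer and SOX cores written backwards (AAACGTA and TTGTTAC) as a comparison. The 250 bases before the start are printed 5′ to 3′ on the strand of the gene. The first group shows octamer cores, in capitals, in 3 promoters under OCT4 and NANOG pairs and in the 1 under an OCT4 and SOX2 pair. They lie at chr13:41132803-41133052 (minus strand, KBTBD6), chr1:202010337-202010586 (plus strand, ELF3), chr7:64563072-64563321 (minus strand, ZNF680) and chr19:21505352-21505601 (plus strand, ZNF429).
KBTBD6: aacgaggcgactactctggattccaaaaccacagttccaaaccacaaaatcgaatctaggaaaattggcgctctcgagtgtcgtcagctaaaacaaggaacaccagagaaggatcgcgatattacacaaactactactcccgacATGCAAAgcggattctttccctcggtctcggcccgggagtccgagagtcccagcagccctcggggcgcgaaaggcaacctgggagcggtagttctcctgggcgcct
ELF3: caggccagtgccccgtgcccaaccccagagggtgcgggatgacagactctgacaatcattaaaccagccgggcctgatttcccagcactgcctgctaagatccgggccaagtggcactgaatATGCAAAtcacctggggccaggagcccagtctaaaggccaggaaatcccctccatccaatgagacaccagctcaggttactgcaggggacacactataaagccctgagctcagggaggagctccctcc
ZNF680: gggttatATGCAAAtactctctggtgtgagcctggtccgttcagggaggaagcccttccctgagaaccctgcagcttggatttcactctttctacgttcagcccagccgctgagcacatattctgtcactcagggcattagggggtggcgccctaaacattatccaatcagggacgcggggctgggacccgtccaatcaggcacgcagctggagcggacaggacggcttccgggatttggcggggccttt
ZNF429: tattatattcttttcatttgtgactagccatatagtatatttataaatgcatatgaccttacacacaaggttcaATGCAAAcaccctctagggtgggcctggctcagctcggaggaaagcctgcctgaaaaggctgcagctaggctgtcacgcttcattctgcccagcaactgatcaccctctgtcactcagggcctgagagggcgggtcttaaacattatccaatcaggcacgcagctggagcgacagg

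KBTBD6, an adaptor of a ubiquitin ligase, had the highest-ranked pair of those with a matched octamer core in these 250 bases, with 15 OCT4 tags and 22 NANOG tags, and its core began 106 bases before the start. ELF3, an epithelial ETS transcription factor, had 18 OCT4 and 23 NANOG tags, and its core began 128 bases before the start. The zinc finger genes ZNF680 and ZNF429 shared an unbroken run of 25 bases (tccaatcaggcacgcagctggagcg) near the start, and each also held an octamer core, 243 and 176 bases before it. Their partner peaks differed, with 8 NANOG tags at ZNF680 and 9 SOX2 tags at ZNF429, both close to the list minimum of 8. These 2 genes were singled out after their sequences were seen.

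The SOX core was found in 1 matched promoter of each kind, GOLGB1 (chr3:121749742-121749991, minus strand) with an OCT4 and NANOG pair and ATP5PO (chr21:33915805-33916054, minus strand) with an OCT4 and SOX2 pair. In GOLGB1 it reads forward, and in ATP5PO on the opposite strand, and it is in capitals in both. The promoters of TMBIM6 (chr12:49741307-49741556, plus strand) and LINC00662 (chr19:27793941-27794190, minus strand) are those under the highest-ranked TSS pair of each kind, and none of the cores was found in the stretch shown.
GOLGB1: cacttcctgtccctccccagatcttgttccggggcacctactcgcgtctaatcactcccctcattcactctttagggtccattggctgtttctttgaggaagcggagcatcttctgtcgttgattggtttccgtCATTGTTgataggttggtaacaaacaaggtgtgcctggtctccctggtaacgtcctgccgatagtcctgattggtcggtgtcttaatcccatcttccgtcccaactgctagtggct
ATP5PO: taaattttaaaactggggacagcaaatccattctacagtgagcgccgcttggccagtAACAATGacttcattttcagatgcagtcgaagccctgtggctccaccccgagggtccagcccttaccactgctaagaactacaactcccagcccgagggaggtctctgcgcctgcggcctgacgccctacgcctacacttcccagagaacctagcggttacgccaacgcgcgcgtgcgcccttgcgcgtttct
TMBIM6: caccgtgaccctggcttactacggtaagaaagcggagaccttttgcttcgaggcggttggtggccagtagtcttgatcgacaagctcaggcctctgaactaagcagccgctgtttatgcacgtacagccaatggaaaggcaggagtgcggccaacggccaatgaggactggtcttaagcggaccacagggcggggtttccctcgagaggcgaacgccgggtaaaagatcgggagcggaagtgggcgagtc
LINC00662: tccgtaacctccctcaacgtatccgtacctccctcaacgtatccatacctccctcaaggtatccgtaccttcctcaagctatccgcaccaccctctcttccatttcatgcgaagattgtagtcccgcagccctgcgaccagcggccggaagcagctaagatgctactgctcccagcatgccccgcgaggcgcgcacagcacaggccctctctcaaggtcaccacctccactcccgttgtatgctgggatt

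Octamer cores were found in 6 of the 61 promoters under OCT4 and NANOG pairs (9.84%, 95% Wilson interval 4.59 to 19.8%), namely ELF3, GEMIN7, KBTBD6, KLHDC8A, RGS2 and ZNF680, and in 1 of the 44 under OCT4 and SOX2 pairs (2.27%, 0.402 to 11.8%). Of all 27305 genes in the RefSeq set, 5.45% held one, and among those under regions of OCT4 alone 4.20%, so both intervals include the share of all genes. The SOX core stood in 1 promoter of each kind, against 4.08% of all promoters, and the NANOG core in 3 under OCT4 and SOX2 pairs and 2 under OCT4 and NANOG pairs, against 8.25%. The backward octamer core stood in 2 and 0 promoters (the 0 of 61 allows up to 5.92% by its Wilson interval; 1.17% of all genes), and the backward SOX core in 1 and 1 (2.41% of all), again ATP5PO and GOLGB1. In ATP5PO it shares letters with the SOX core, so the 2 matches there are not separate. A gene with several listed promoters was counted where any of them held the core. A match is a description of the letters and not a bound site. What the promoters shared was base composition, with at least 10 CG dinucleotides in 97.7% of those under OCT4 and SOX2 pairs and 91.8% under OCT4 and NANOG pairs, against 56.0% of all promoters and 90.5% under OCT4 alone.

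The SOX2 pairing was much more common where H9 also had a peak. OCT4 and SOX2 pairs made up 2.96% (2.78 to 3.14%) of the 34902 NT2/D1 OCT4 regions without an H9 peak and 12.5% (11.9 to 13.1%) of the 10790 with one. OCT4 and NANOG pairs made up 3.02% (2.85 to 3.21%) of the former and 6.63% (6.17 to 7.11%) of the latter. Regions of all 3 factors made up 0.957 and 15.1%. Seen from the pairs, 43.4% (41.4 to 45.4%) of all OCT4 and SOX2 pairs lay outside H9 peaks, 59.6% (57.3 to 61.9%) of OCT4 and NANOG pairs and 17.0% of regions with all 3 factors. These counts follow from the rule and are given as a description, and the intervals, as all those below, cover counting error only.

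**Figure D1:**
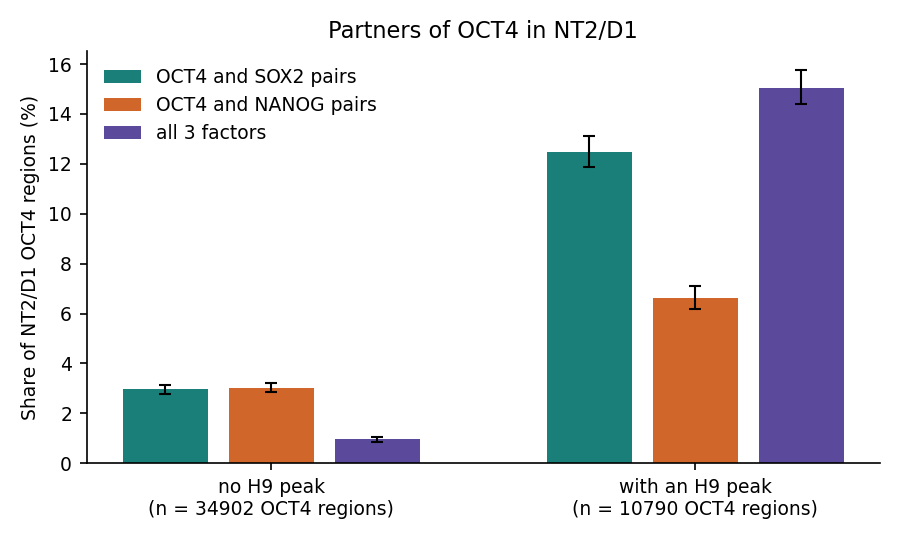
Share of NT2/D1 OCT4 regions (%) that were OCT4 and SOX2 pairs, OCT4 and NANOG pairs or held all 3 factors, for regions without and with an H9 peak; bars are shares and whiskers 95% Wilson intervals. Without an H9 peak both kinds of pair are near 3% (2.96 and 3.02%), and with one the OCT4 and SOX2 pairs reach 12.5% and the OCT4 and NANOG pairs 6.63%.

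Most pairs rested on few tags. The median pair of OCT4 and SOX2 had 10 OCT4 and 13 SOX2 tags, and that of OCT4 and NANOG had 9 OCT4 and 11 NANOG tags, where regions of OCT4 alone had 7. Median fold enrichment over IgG, as the authors' peak caller gave it, was 7.85 for OCT4 and 6.25 for SOX2 in the first kind, and 7.54 for OCT4 and 6.48 for NANOG in the second. Regions of OCT4 alone had a higher median OCT4 fold, 8.71. Fewer than 10 OCT4 tags stood behind 49.8% of OCT4 and SOX2 pairs and 50.2% of OCT4 and NANOG pairs, against 22.1 and 25.2% of the same pairs inside H9 peaks. The OCT4 peak had an FDR of at most 5% in only 22.2% of OCT4 and SOX2 pairs and 20.4% of OCT4 and NANOG pairs. Inside H9 peaks these shares were 67.4 and 57.6%, and over the whole NT2/D1 OCT4 list the share was 22.5%. Within its own list the OCT4 peak stood at a median score percentile of 52.3 in OCT4 and SOX2 pairs outside H9 peaks and 89.6 in those inside, and at 51.6 and 83.4 in OCT4 and NANOG pairs.

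The strengths of the 2 peaks of a pair were almost uncorrelated outside H9 peaks. Outside H9 peaks the Spearman correlation of the OCT4 and partner percentiles was 0.0307 over 1032 OCT4 and SOX2 pairs and 0.0366 over 1055 OCT4 and NANOG pairs, regions that all share the same libraries. It was 0.266 and 0.0738 inside H9 peaks. Both peaks stood in the upper 25% of their lists in 78 OCT4 and SOX2 pairs (7.56%) and 76 OCT4 and NANOG pairs (7.20%), against 39.0 and 26.9% inside.

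**Figure D2:**
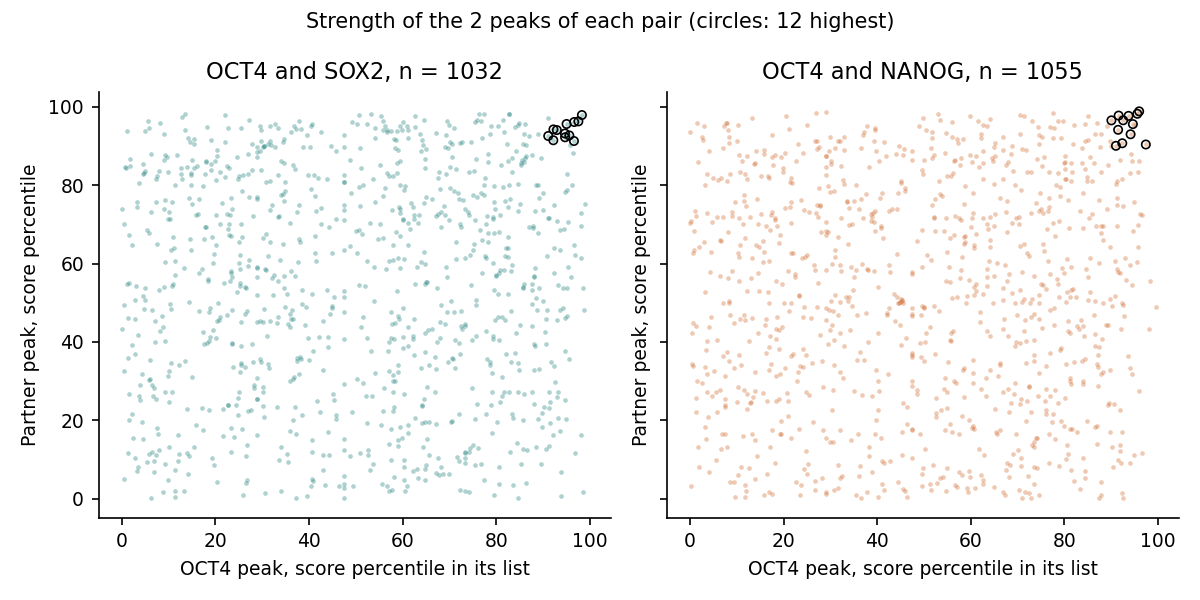
Score percentile of the partner peak in its list (y axis) against that of the OCT4 peak (x axis) for the 1032 OCT4 and SOX2 pairs (left) and 1055 OCT4 and NANOG pairs (right); each point is a region, and circles mark the 12 highest of each kind by the lower of the 2 percentiles. The points fill both squares, with correlations of 0.0307 and 0.0366.

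Ranked by the lower of the 2 percentiles, the highest OCT4 and SOX2 pair lay 56.4 kb from the TSS of TCP10 (chr6:167854353-167854956, hg19) with 32 OCT4 and 28 SOX2 tags, folds of 21.6 and 12.1, and summits 6 bp apart. The next lay 78.1 kb from ZNF676 (26 and 27 tags, summits 7 bp apart) and 37.1 kb from IFNAR1, a chain of the type I interferon receptor (33 and 31 tags, 5 bp apart). A pair 189 kb from MAF, a bZIP transcription factor, had 20 and 23 tags with summits 19 bp apart, and its nearest H9 peak was 593 bp away. Of the 12 highest, BRINP2 alone was within 1 kb of a TSS, at 407 bp, with 15 and 28 tags and summits 402 bp apart. The others lay nearest UBE2V1, DOCK5, SLC24A2, ATP8A1, GIMAP8, DNAJC15 and TGOLN2, at 1907 bp (GIMAP8) to 139 kb (SLC24A2).

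The highest OCT4 and NANOG pairs lay closer to genes. HSBP1L1 came first (chr18:77718351-77718745, 5839 bp from the TSS) with 18 OCT4 and 33 NANOG tags, folds of 15.9 and 12.2, and summits 15 bp apart. TMBIM6, which encodes an inhibitor of cell death in the endoplasmic reticulum, followed with a pair over its TSS (chr12:50135236-50135990) of 27 OCT4 and 18 NANOG tags, folds of 12.2 and 16.8, and summits 54 bp apart. TFCP2, a CP2-family transcription factor, also had a pair over its TSS (35 and 21 tags), and MARK2, a polarity kinase, had one 280 bp away (25 and 28 tags). JUND, a subunit of AP-1, had one at 1099 bp (20 and 27 tags). The others were C11orf92, ATP2B1, ITGA4, FOXJ2, LMOD3, HIBADH and ADAMTS13, at 5386 bp (FOXJ2) to 128 kb (LMOD3).

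OCT4 and NANOG pairs lay nearer to gene starts than OCT4 and SOX2 pairs, on a measure that the choice of regions did not use. Distances are those that the submitters' annotation gives for the OCT4 peak of a region, so a TSS near the partner peak only is not counted. Within 1 kb of a TSS lay 184 of 1055 OCT4 and NANOG pairs (17.4%, 15.3 to 19.8%) and 126 of 1032 OCT4 and SOX2 pairs (12.2%, 10.4 to 14.3%). The difference was 5.23 percentage points (95% Newcombe interval 2.18 to 8.27). OCT4 alone outside H9 peaks stood at 11.8% (11.4 to 12.1%), inside the interval of the OCT4 and SOX2 pairs and below that of the OCT4 and NANOG pairs. The median distance was 26473 bp (23197 to 30886) for OCT4 and NANOG pairs, 40063.5 bp (33844 to 44390) for OCT4 and SOX2 pairs and 39493.5 bp for OCT4 alone.

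**Figure D3:**
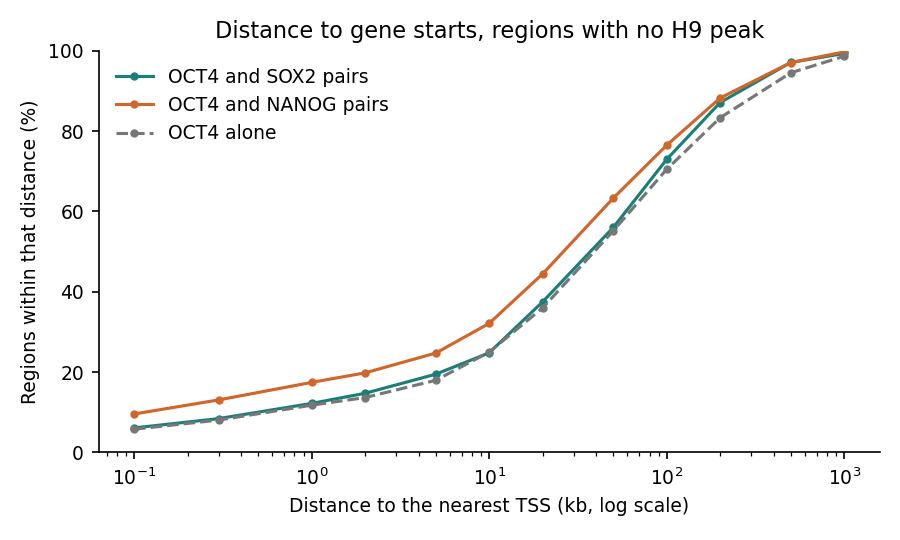
Percentage of regions without an H9 peak (y axis) whose OCT4 peak lies within the distance on the x axis (kb, log scale) of the nearest TSS, for OCT4 and SOX2 pairs, OCT4 and NANOG pairs and OCT4 alone. The OCT4 and NANOG line is higher at 1 kb (17.4 against 12.2%) and at 50 kb (63.3 against 56.0%), and the OCT4 and SOX2 line runs close to that of OCT4 alone (11.8 and 55.2%).

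The excess was seen at each distance up to 50 kb, but these shares are cumulative and are not separate checks. Each wider share includes the pairs within 1 kb, and the difference within 5 kb was hardly larger than the 5.23 points within 1 kb. A TSS lay inside the OCT4 peak for 76 OCT4 and NANOG pairs (7.20%) and 48 OCT4 and SOX2 pairs (4.65%), a difference of 2.55 points (0.522 to 4.61). Within 5 kb the shares were 24.7 and 19.5%, 5.26 points apart (1.70 to 8.80), and within 50 kb 63.3 and 56.0%, 7.31 points apart (3.10 to 11.5). Beyond 500 kb they were 2.94 and 2.91% (difference 0.0314 points, -1.46 to 1.51), against 5.42% of OCT4 alone. The same contrast in regions with an H9 peak was 12.2 against 6.91%, 5.25 points (2.60 to 8.13). In the single lists, 3.97% of NANOG and 2.98% of SOX2 peaks outside H9 lay within 1 kb of a TSS, against 11.98% of OCT4 peaks.

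The share near a TSS was highest in the pairs with stronger peaks. Among OCT4 and NANOG pairs it went from 12.7% (9.93 to 16.2%, n = 440) where the lower percentile was at most 25 to 25% (16.6 to 35.8%, n = 76) where it was above 75, with intervals that do not overlap. In OCT4 and SOX2 pairs it was 9.83% (7.30 to 13.1%, n = 407) and 17.9% (11.0 to 27.9%, n = 78), with overlapping intervals. Pairs within 1 kb of a TSS also had more OCT4 tags, a median of 14 with SOX2 and 12 with NANOG. Their OCT4 fold was not higher, with medians of 7.47 with SOX2 and 7.12 with NANOG. Beyond 1 kb these medians were 8 and 7.67, with overlapping intervals. Summits of the pairs within 1 kb lay a median of 173.5 bp (125 to 235) and 122.5 bp (98 to 158) apart, against 104 bp (92 to 118) and 103 bp (92 to 115) in pairs beyond 1 kb. The intervals overlap for OCT4 and NANOG pairs and not for OCT4 and SOX2 pairs.

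Genes with an OCT4 and NANOG pair over the TSS included, in descending order of rank after TMBIM6 and TFCP2, GCC2 (a golgin; 20 OCT4 and 16 NANOG tags), VPS72 (a histone chaperone subunit; 28 and 11) and RGS2 (a regulator of G protein signalling; 14 and 12). RGS2 had summits 41 bp apart and an H9 peak 837 bp away, whereas GCC2 and VPS72 had summits 430 and 668 bp apart. Genes chosen after their values were seen, for what they encode, were the DNA damage kinase ATR (26 and 14 tags), the nuclease EXO1 (15 and 13), the endoplasmic reticulum chaperone HSPA5 (12 and 9) and TBX5, a heart and limb T-box factor (11 and 8). The TBX5 pair had summits 11 bp apart and lay 238 bp from an H9 peak.

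OCT4 and SOX2 pairs near a TSS were led, after BRINP2, by HSD11B1L (208 bp; 21 OCT4 and 22 SOX2 tags), LINC00662 (over the TSS; 36 and 16), MYCBP, which encodes a MYC-binding protein (133 bp; 12 and 23), and GGCT (over the TSS; 17 and 27). GGCT, of glutathione metabolism, had its summits 638 bp apart. Chosen after their values were seen were the AP-1 gene JUN (18 and 21 tags, summits 83 bp apart), the helicase gene RTEL1 (29 and 11, 108 bp), the recombination gene RAD54L (9 and 16, 219 bp) and the histone demethylase gene KDM5C (11 and 8, 177 bp). JUN and RAD54L lay 1582 and 53 bp from an H9 peak.

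Summits of the 2 factors were farther apart outside H9 peaks than inside them. The median distance was 110.5 bp (98 to 124) in OCT4 and SOX2 pairs and 106 bp (97 to 117) in OCT4 and NANOG pairs, with overlapping intervals. Inside H9 peaks it was 39 bp (36 to 42) and 62 bp (55 to 72). An H9 peak can join 2 NT2/D1 peaks that do not touch, which was so for 84 of 1345 and 70 of 715 pairs, and without those the medians inside were 35 bp (32 to 38) and 51 bp (44 to 59). Summits within 50 bp were found in 29.5% of OCT4 and SOX2 pairs and 27.9% of OCT4 and NANOG pairs outside H9 peaks, and in 58.3 and 44.9% inside. Peak strength moved with this contrast, as given above, and its part in it was not tested. Above the 75th percentile in both lists, 37.2% (27.3 to 48.3%) of OCT4 and SOX2 pairs had summits within 50 bp. For OCT4 and NANOG pairs it was 19.7% (12.3 to 30.04%), and these intervals overlap. The weaker pairs showed no such gap. Where the lower percentile was at most 25, the shares were 27.03% with SOX2 and 26.6% with NANOG. Above 25 and up to 50 they were 30.2 and 31.03%, and above 50 and up to 75 they were 30.04 and 28.6%.

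**Figure D4:**
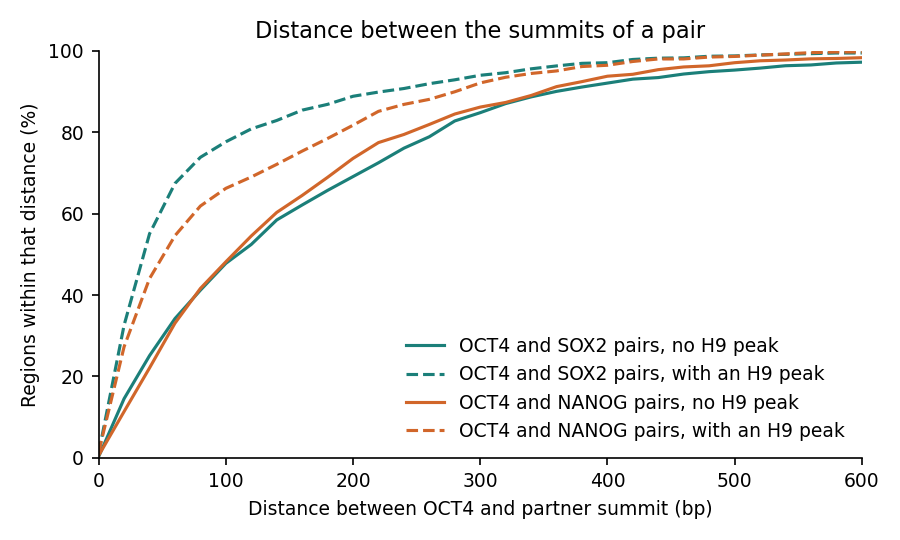
Percentage of pairs (y axis) whose OCT4 and partner summits lie within the distance on the x axis (bp); solid lines are pairs without an H9 peak, dashed lines pairs with one whose 2 peaks overlap each other. The solid lines run together (medians 110.5 and 106 bp) below the dashed ones (35 and 51 bp).

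The share of OCT4 peaks that lay in a pair was greatest where the OCT4 peak was highest. In the lowest decile of OCT4 peaks outside H9 peaks by score, 2.46% lay in OCT4 and SOX2 pairs and 2.43% in OCT4 and NANOG pairs. In the ninth decile it was 3.47 and 3.89%, and in the highest 5.53% (4.82 to 6.33%) and 5.15% (4.47 to 5.94%). OCT4 peaks of the highest decile were also longer, with a median of 361 bp against 249 bp in the lowest. The part of length in the rise was not tested.

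The pairs were unevenly spread over the chromosomes. Chromosome 1 held 17.1% of OCT4 and SOX2 pairs and 20% of OCT4 and NANOG pairs, against 11.4% of OCT4 alone, and chromosome 7 held 12.8 and 10.8%, against 7.53%. On chromosome 12 it was 10.1 and 9.95%, against 6.72%, and on chromosome 21 3.88 and 3.51%, against 1.86%. These 4, chosen after the values were seen, held 43.8 and 44.3% of the 2 kinds and 27.5% of OCT4 alone. Regions of 1 partner alone without an H9 peak had the same tilt, with 39.2% of SOX2 alone and 37.7% of NANOG alone on these chromosomes. Both partner lists were compared with the same IgG library. Of the same kinds of pair with an H9 peak, 25.6% with SOX2 and 30.2% with NANOG lay on these chromosomes. Chromosome 10, by contrast, held 14 OCT4 and SOX2 (1.36%) and 6 OCT4 and NANOG pairs (0.569%), against 3.33% of OCT4 alone. Chromosome 5 held 8 and 12 (0.775 and 1.14%), against 3.99%. They are among 10 chromosomes (4, 5, 6, 10, 14, 16, 17, 18, 22 and X) where both kinds were under 1/1.2 times the share of OCT4 alone. Those 10, also chosen by their values, held 12.5 and 13.0% of the 2 kinds and 29.2% of OCT4 alone. The part of the shared IgG library in this spread was not tested.

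**Figure D5:**
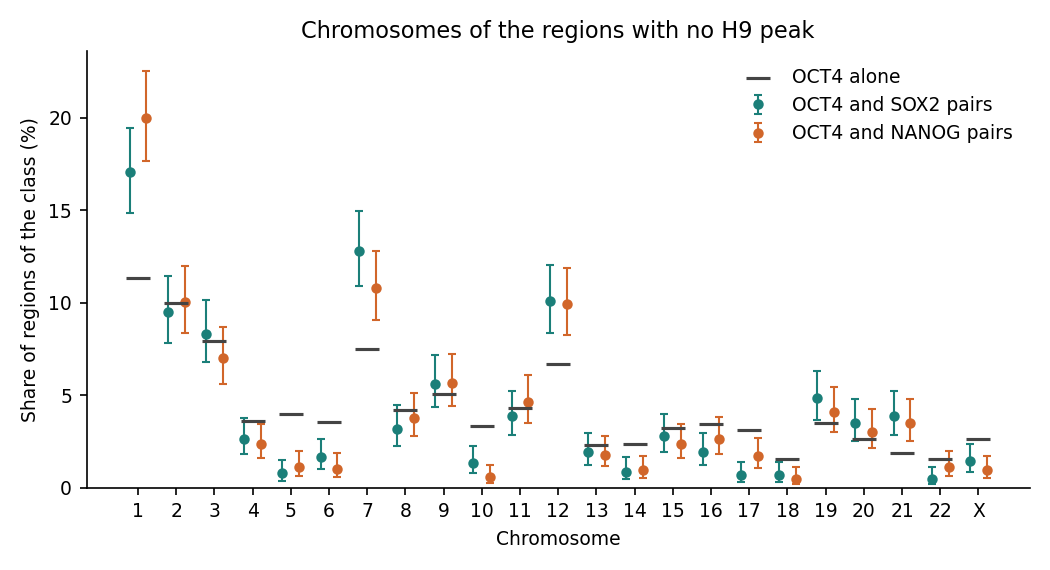
Share of the regions of each class (%, y axis) on each chromosome (x axis) for OCT4 and SOX2 pairs and OCT4 and NANOG pairs, points with 95% Wilson intervals, and for OCT4 alone, dashes; all are regions without an H9 peak. Both kinds of pair lie above OCT4 alone on chromosomes 1, 7, 12 and 21 and below it on chromosomes 5, 6 and 10.

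Of 1092 windows of 1 Mb with a pair, 578 held 1, 335 held both kinds and 25 held more than 5. The fullest held 8, and there were 4 such windows. At chr1:156000001-157000000 there were 4 of each kind, near genes such as NES, which encodes the neural progenitor filament nestin, and IQGAP3. At chr1:201000001-202000000 there were 3 OCT4 and SOX2 and 5 OCT4 and NANOG pairs, ELF3 and CACNA1S among their genes. At chr12:6000001-7000000 there were 5 and 3, near CD9 and GAPDH, and at chr7:2000001-3000000 there were 2 and 6, near LFNG and NUDT1. The same 4 windows held 35, 34, 23 and 24 regions of OCT4 alone, and how far the count of pairs follows the density of peaks was not tested.

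The gap to the nearest H9 peak was much the same as for OCT4 alone. An H9 peak lay within 1 kb of 6.40% of OCT4 and SOX2 pairs, 7.01% of OCT4 and NANOG pairs and 6.01% of regions of OCT4 alone, and the median gap was 17808.5, 16638 and 18018.5 bp. Nearest to the limit of the rule were NTM (6 bp from an H9 peak; 10 OCT4 and 10 SOX2 tags) and GGCT (42 bp), and, with NANOG, KBTBD6 and H1-9P (32 bp each). Just excluded were SYT13 and RGMA, whose OCT4 and SOX2 pairs overlapped an H9 NANOG peak by 2 and 56 bp, and CCN2 and SGIP1, whose OCT4 and NANOG pairs overlapped an H9 peak by 2 and 4 bp. The missing factor of NT2/D1 was more often near: NANOG had a peak within 1 kb of 8.82% of OCT4 and SOX2 pairs and SOX2 of 10.5% of OCT4 and NANOG pairs, against 3.55% of OCT4 alone for each factor. Pair regions were wider, with medians of 547 and 494 bp, against OCT4 peaks of 258 bp in OCT4 alone. They also lay more often on chromosomes 1, 7, 12 and 21, as did regions of SOX2 alone and of NANOG alone without an H9 peak. The part of width and chromosome in this was not tested.

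A pair was counted only for the nearer of the genes listed beside its OCT4 peak. A gene within 50 kb of a pair is therefore missed where another gene lay nearer. By this count few genes of the pluripotency and signalling lists had a pair within 50 kb of their TSS. Over all 19704 genes annotated in the peak lists, 2.8% had an OCT4 and SOX2 pair and 3.27% an OCT4 and NANOG pair, and of the 405 genes of 14 lists 8 (1.98%) and 9 (2.22%) had one. Among 36 genes of core pluripotency, SALL4, a zinc finger factor of stem cells, had an OCT4 and SOX2 pair at 26.1 kb (14 and 9 tags) and TRIM71, a translational repressor, one at 45.9 kb (24 and 25 tags). PODXL, a surface sialomucin used to mark embryonal carcinoma cells, had 3 OCT4 and NANOG pairs, of which the strongest lay 30.1 kb away with 42 OCT4 and 53 NANOG tags.

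Of 39 genes of Nodal, TGF-beta and BMP signalling, TGFB2, a TGF-beta ligand, had an OCT4 and NANOG pair 678 bp from its TSS (9 and 10 tags, summits 18 bp apart), and of 36 WNT genes WNT3A had one at 32.2 kb (16 and 12). None of 27 genes of FGF and ERK signalling, 28 germ cell, 31 cell cycle and 23 hepatocyte genes was the nearer gene of a pair within 50 kb. Of 21 genes of retinoic acid signalling, through which NT2/D1 cells can be differentiated, the receptors RARA and RARG had OCT4 and NANOG pairs 4849 and 3192 bp away with 6 and 9, and 12 and 9 tags. Of 37 chromatin regulators, EZH2 (930 bp), PHC2 (480 bp), both of Polycomb complexes, and ARID1A (35.4 kb) had OCT4 and NANOG pairs and SMARCC1 (17.5 kb) an OCT4 and SOX2 pair; ARID1A and SMARCC1 encode BAF remodeller subunits.

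Among 44 neuroectoderm genes POU3F1, a neural POU factor, had 2 OCT4 and NANOG pairs at 36.7 and 43.3 kb (21 and 58, and 12 and 40 tags). OCT4 and SOX2 pairs were listed for MESP2 of 24 mesendoderm genes (6747 bp; 35 and 10 tags), KRT7 of 18 trophectoderm genes (11.4 kb; 13 and 11) and HOXC13 of 38 HOX genes (14955 bp; 11 and 20). Of 22 muscle genes, a list for comparison, MYL2 and TNNI2 had one, at 33.3 and 4.889 kb (7 and 12, and 10 and 19 tags). Each list held 0 to 3 genes with a pair of a given kind. Within 5 kb of the TSS, where 1% of all genes had an OCT4 and SOX2 pair and 1.32% an OCT4 and NANOG pair, the list genes were TNNI2 for the first and TGFB2, EZH2, PHC2, RARA and RARG for the second.

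Counted by the nearer gene in the same way, 45 genes had a pair of each kind within 50 kb of a listed TSS, not always the same TSS. They were 8.17% of the genes with an OCT4 and SOX2 pair, where 3.27% of all 19704 genes had an OCT4 and NANOG pair. They were 6.99% of the genes with an OCT4 and NANOG pair, where 2.8% of all genes had an OCT4 and SOX2 pair. The part of gene spacing and peak density in this was not tested. By summed percentiles the leading ones were TCFL5, LFNG, CREB5, ZNF117, CACNA1S and RAB3IP. TCFL5, a bHLH factor of the testis, had its OCT4 and SOX2 pair 747 bp (12 and 12 tags) and its OCT4 and NANOG pair 22.2 kb from the TSS (10 and 16 tags). LFNG, which glycosylates Notch, had them at 48.0 kb (13 and 9) and 23.1 kb (17 and 11), and RAB3IP, an exchange factor for Rab proteins, at 296 bp (12 and 12) and 4382 bp (6 and 9). CREB5, a bZIP factor, had the OCT4 and NANOG pair nearer, at 3642 bp (8 and 11 tags), and the OCT4 and SOX2 pair at 46.3 kb from another listed start (17 and 31).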

How the data were processed

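Binding of SOX2, OCT4 and NANOG was measured by ChIP-seq in H9 and NT2/D1, with 1 library per factor and line and an IgG library. The authors called peaks with MACS, per the file headers (p cutoff 0.001, tag size 50, band width 200 in NT2/D1 and 2000 in H9), on hg19, per the submitters' processing notes; the aligner is not given in the sources used here. Each deposited peak has a tag count, a score (log10 of p times 10, with the sign turned), a fold enrichment ratio over IgG and an FDR in percent, per the file headers; these are the authors' values and are used within a list only. In the NT2/D1 SOX2 and NANOG lists FDR rises with the score (Spearman 1.00), so peaks were ranked by score.

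Peaks overlapping by at least 1 bp were merged, and regions classed by the lists they held. The region's gene is the nearer of those the submitters list beside the OCT4 peak; 23834 of 25014 RefSeq accessions (95.3%) matched a GRCh38.p14 symbol. Shares have 95% Wilson intervals, differences Newcombe intervals and medians order-statistic intervals; regions are not replicates, so no p-value is given. Named regions are, per kind on chromosomes 1 to 22 and X, the 12 highest by the lower of the 2 score percentiles, the 6 highest within 1 kb of a TSS, genes of the fixed lists within 50 kb (up to 4 a list), up to 6 genes with both kinds and the 2 closest to an H9 peak. One region that this rule names is not reported here. The members and lists were chosen with earlier results of these data known. The merging was tested on simulated peaks. Python 3.11.15, pandas 2.3.3, NumPy 2.4.6, SciPy 1.17.1 and matplotlib 3.10.9 were used. Alternatives varied the score filter, list length, widest regions, overlap, summit distance, H9 margin, library labels and gene window.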

Additional observations from a re-analysis of the deposited data

How the results depend on the processing

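The promoter share of OCT4 and NANOG pairs was above that of OCT4 and SOX2 pairs in each of the 7 alternatives. The exchange of library labels, given below, cannot check this contrast, and the other alternatives keep parts of the same peak lists. In the upper 50% of each list by score there were 438 OCT4 and SOX2 and 401 OCT4 and NANOG pairs, with promoter shares of 14.6 and 22.9% and a median summit distance of 95.5 bp for OCT4 and SOX2. With lists of equal length there were 316 and 351, with promoter shares of 16.8 and 24.5% and a median of 118 bp for OCT4 and NANOG. The intervals of these shares, 13.1 to 21.3% and 20.3 to 29.3%, overlap. A reciprocal overlap of 50% left 580 and 621 pairs with medians of 65 and 66 bp, and summits within 200 bp gave medians of 61 and 69 bp, both shorter by construction, and an OCT4 and SOX2 promoter share of 9.40%. Under reciprocal overlap the promoter shares were 11.6% (9.20 to 14.4%) and 15.8% (13.1 to 18.9%), again with overlapping intervals. In the other alternatives the intervals of the 2 kinds did not overlap. When the OCT4 list of NT2/D1 was read as NANOG and the reverse, following the source field, 3127 regions were OCT4 and SOX2 pairs, with a promoter share of 3.77%. These regions hold no peak of the list titled OCT4. Outside H9, 11.98% of the peaks of that list lay within 1 kb of a TSS, against 2.98% for SOX2 and 3.97% for NANOG. The part of the choice of paired lists in the lower share was not tested. Leaving out the widest 1%, or an H9 margin of 1 kb, moved no promoter share or median summit distance past its counting interval. The numbers of pairs, which have no such interval, were 1018 and 1028 on chromosomes 1 to 22 and X without the widest 1%. With the H9 margin they were 966 and 981. Counted by the nearer gene within 5 kb instead of 50 kb, the list genes with a pair were TNNI2 with SOX2 and TGFB2, EZH2, PHC2, RARA and RARG with NANOG. The motif search in the regions themselves was not run, as no hg19 genome was used here. No paired analysis was possible because each factor has 1 library in each line. The lowest tag count of a peak was 5 in the OCT4 list and 8 in the SOX2 and NANOG lists of NT2/D1, which limits the precision of single pairs.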
